A study of Caenorhabditis elegans with 8 samples.

Results

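The ugt genes, the family named after UDP-glucuronosyltransferases, were followed in intestines of fasted and fed Caenorhabditis elegans adults. Members were all rows whose WormBase symbol is ugt followed by a number. This gave 67 of the 20392 genes in the table, all annotated as protein-coding. The 4 fasted libraries (starved in the labels) came from wild-type N2(Bristol) day 1 adults that were washed and then held without food in M9 buffer for 12 h. The 4 fed libraries (non-starved) came from animals of the same strain and culture, grown on OP50 bacteria, and went from a bath of M9 straight to dissection. Several intestines, freed by decapitating the animals in a buffer with levamisole, were combined in each library. The lack of food, the hours in liquid and the added age cannot be told apart here. The labels give 12 h for both groups, and their growth text mentions auxin plates for all 8 libraries, which the design text does not.

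UGT enzymes sit in the membrane of the endoplasmic reticulum and transfer a sugar from a UDP-sugar onto small lipophilic molecules, which makes these more soluble and easier to export. In nematodes the sugar is often glucose rather than glucuronic acid, and the intestine is the main site where worms take up and neutralise foreign compounds. For most of the worm genes no substrate is established, so that a name in this family is a statement about sequence and not about a known reaction.

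Depth was similar across libraries, with 25310202 to 33846215 counts in the fasted and 20964161 to 26372847 in the fed libraries. Vitellogenins, the yolk protein genes, took 66.5% to 67.8% of the fasted and 71.8% to 73.2% of the fed counts, and with no spike-in a value is a share of its library and not an amount per intestine. Over the 7379 tested genes, log2 fold changes (fasted over fed) had a median of 1.23 when libraries were scaled by total counts and of 0.16 with TMM factors, a shift of 1.07. Both scalings are therefore given below for counts of calls. In bulk tissue, fewer cells of a type and less RNA per cell cannot be told apart. The 13 intestine markers summed to 7608 to 7969 RPM in fasted and 11259 to 12165 RPM in fed libraries, and 0 of them were at 0 in either group. Most of this sum was the protease gene cpr-6 (6544 to 7065 RPM in fasted, 9620 to 10282 RPM in fed libraries). Of the 13, 8 lay below all fed values in every fasted library, 2 overlapped, and elt-2, elt-7 and ges-1 lay above (elt-7 at 84.3 to 110.2 RPM in fasted, 38.5 to 56.8 RPM in fed libraries), so that these markers did not move together. Markers of other tissues were uneven. Body wall muscle (12 genes) summed to 1011, 64.6, 23.01 and 1458 RPM in fasted libraries 1 to 4, against 9.90 to 13.2 RPM in the fed ones, where 2 of the 12 were at 0 throughout. Pharynx markers (9 genes) reached 197, 2.45, 0.833 and 378 RPM in the fasted libraries, against 0.201 to 0.531 RPM in the fed ones, where 4 were at 0. Neuron markers (12 genes) were at 66.2, 17.2, 14.95 and 79.0 RPM in fasted libraries 1 to 4, against 8.72 to 13.1 RPM in the fed ones (6 at 0 in all fed). Germline markers (12 genes) were at 142, 437, 56.6 and 62.8 RPM in fasted libraries 1 to 4, against 17.3 to 20.2 RPM in the fed ones (1 at 0 in all fed). In fasted libraries 3 and 4 most of this sum was glh-1 (28.4 and 27.9 RPM) and cgh-1 (25.3 and 26.4 RPM). Hypodermis markers (10 genes) lay at 355, 101.4, 19.3 and 19.7 RPM in fasted libraries 1 to 4, against 12.5 to 85.2 RPM in fed libraries, with 1 at 0 in all fasted and 3 at 0 in all fed. In fasted library 1 most of it was col-119 (137 RPM) and col-140 (205 RPM). Few single markers separated the groups. Above all fed values in every fasted library were 5 muscle, 2 pharynx, 2 neuron, 3 germline and 2 hypodermis genes. The others overlapped. Fasted libraries 1 and 4 thus had the highest muscle, pharynx and neuron sums, and fasted libraries 1 and 2 the highest germline and hypodermis sums of that group. Calls were repeated with only fasted libraries 2 and 3 and with only 1 and 4.

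The family as a whole took a similar share of the transcripts in both states, but different members supplied it. Summed over the 67 genes, the level was 1619, 1837, 1464 and 1248 RPM in the fasted libraries and 1393, 1554, 1956 and 1666 RPM in the fed ones. The groups overlapped, with means of 1542 ± 249 RPM in fasted and 1642 ± 237 RPM in fed intestines (SD, n = 4 each). With TMM factors the ratio of the sums was −1.16 on the log2 scale, so that the similarity holds for shares of the library only.

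The make-up of these reads does not depend on the scaling. A single gene, ugt-62, held 1.19%, 1.08%, 1.26% and 1.55% of all ugt counts in the fasted libraries, against 34.6%, 34.4%, 39.8% and 33.6% in the fed ones. In its place ugt-44, ugt-1, ugt-4, ugt-23 and ugt-54 were the leading genes of the fasted state. Together these 5 made up 62.9% ± 1.21 of the ugt counts in fasted and 13.04% ± 0.679 in fed libraries (SD, n = 4 each). The 5 that led in fed libraries, ugt-62, ugt-26, ugt-22, ugt-44 and ugt-2, made up 24.2% ± 1.36 in fasted and 58.7% ± 3.36 in fed libraries. These sets were chosen by rank in the same libraries, and the percentages describe them without a test. Only ugt-44 belonged to both. The number of genes needed to reach 90% of the ugt counts was alike, at 16 to 18 in fasted and 16 to 19 in fed libraries.

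**Figure D1:**
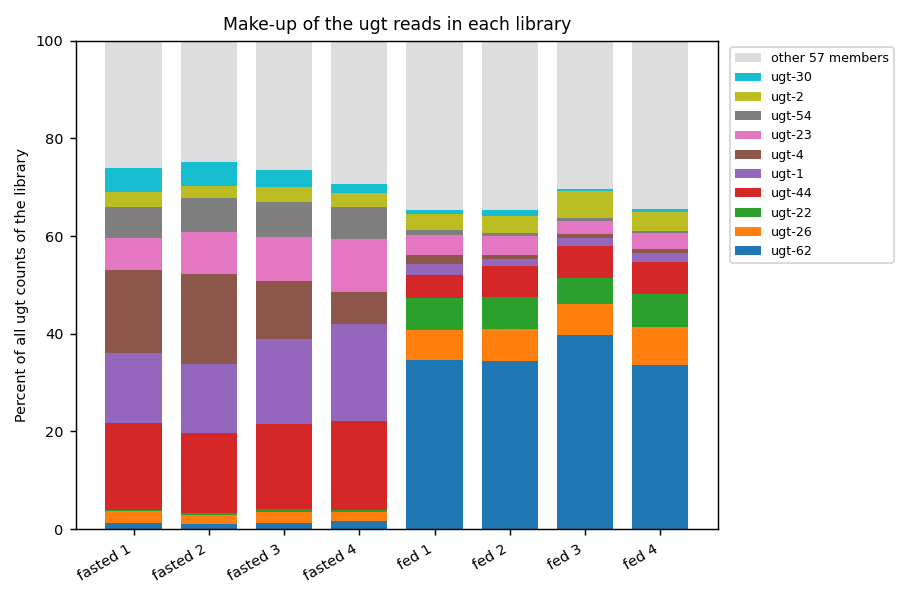
Percent of all ugt counts held by 10 members and by the other 57 in each library, fasted libraries on the left and fed on the right. The blue segment of ugt-62 is 1.08% to 1.55% of the fasted bars and 33.6% to 39.8% of the fed bars.

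Of the 67 members, 44 had enough counts to be tested. Scaled by total counts, 12 were higher and 19 lower in fasted than in fed intestines, and 13 were not called (edgeR's quasi-likelihood test, FDR under 0.01 and fold change over 1.5). These are 27.3% and 43.2% of the tested members, where 52.9% of all genes tested were called higher and 9.97% lower. Under TMM, 6 members were higher and 28 lower, where all genes gave 19.6% higher and 21.5% lower. The share of the family's calls that were higher was 38.7% by total counts and 17.6% under TMM. The 19 lower members were also lower under TMM, 6 of the 12 higher members remained higher, and 9 members that were not called by total counts became lower. TMM moved the all-gene median down by 1.07 and every tested member downward. That the lower calls stayed therefore adds nothing to them. Among the 44, the 4 fasted values lay above all fed values for 12 genes and below all of them for 19, against 58.5% and 11.1% of all tested genes. These are the genes that were called, so that the separation adds nothing to the calls.

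The median log2 fold change of the 44 genes was −0.54, or −1.77 once the all-gene median was subtracted. With TMM factors it was −1.61, and −1.78 after the same subtraction. Of the 44, 34 lay below the all-gene median. With only fasted libraries 2 and 3 the calls were 12 higher and 15 lower. The family median was then −0.59, beside 1.16 for all 7649 genes tested. With only 1 and 4, where 48 members were tested, they were 14 and 17. The family median was −0.51 there, beside 1.40 for all 8445 genes tested. Leaving out any 1 library gave 12 to 13 higher and 16 to 20 lower. Of all genes, 3521 to 3908 were then higher and 636 to 724 lower, with 7511 to 7948 tested.

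**Figure D2:**
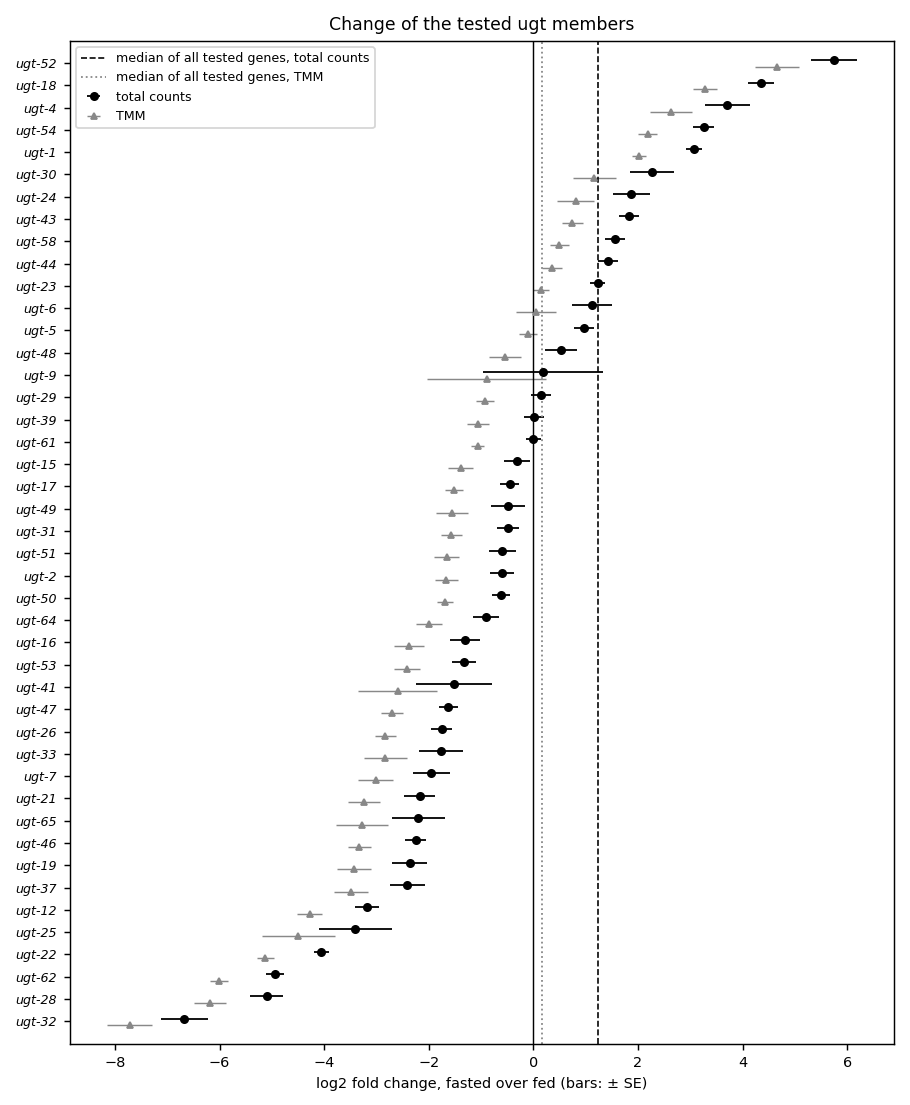
Log2 fold change (fasted over fed, bars ± SE) of the 44 tested ugt genes by total counts (black circles) and with TMM factors (grey triangles), with all-gene medians as dashed and dotted lines. The values run from ugt-52 at 5.75 down to ugt-32 at −6.68 by total counts, and 34 genes lie left of the dashed line at 1.23.

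Among the members that fell, ugt-62 (WBGene00010904) was by far the most abundant in the fed intestine. It lies alone on chromosome III at 4537281 to 4540623 in WBcel235 and has 8 exons. Its level was 19.3, 19.8, 18.4 and 19.4 RPM in the fasted libraries and 482, 535, 779 and 560.5 RPM in the fed ones. Every fasted library was far below every fed one, and the fasted libraries were much closer to each other (SD 0.582) than the fed ones (SD 131). The log2 fold change was −4.94 (SE 0.174, edgeR FDR 1.76e-08), and −6.01 under TMM.

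Further genes also fell steeply. ugt-22 (WBGene00007455; chromosome IV, 13639260 to 13644567), which has been linked to tolerance of the anthelmintic albendazole in worms and to the stress regulator SKN-1, was at 6.37, 5.53, 6.93 and 6.03 RPM in fasted and at 91.4, 104, 105 and 112 RPM in fed libraries (log2 fold change −4.05, SE 0.146, edgeR FDR 1.85e-08). ugt-28 (WBGene00015693; chromosome I, 4727280 to 4730366) had 1.02, 0.553, 0.400 and 0.886 RPM in fasted and 17.9, 25.7, 28.5 and 27.3 RPM in fed libraries (−5.10, SE 0.312, edgeR FDR 3.15e-07). Neither gene overlapped between the groups. ugt-12 (WBGene00020592; chromosome V, 4887165 to 4889629) was at 8.37, 4.82, 4.96 and 8.04 RPM in fasted and 49.5, 70.2, 55.2 and 63.7 RPM in fed libraries (−3.18, SE 0.233, edgeR FDR 9.75e-07). ugt-32 (chromosome V, 3841794 to 3844007) had 2, 0, 2 and 2 counts in the fasted libraries, which is at the floor, against 148, 142, 154 and 97 counts in the fed ones. Set against 3 counts per fasted library it was at least 54.9-fold lower (edgeR FDR 5.45e-07), and its fitted value of −6.68 depends on the prior count.

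Several abundant members fell less steeply. ugt-26 (chromosome I, 4721131 to 4723982) had 38.9, 34.1, 33.5 and 22.9 RPM in fasted and 85.2, 100.4, 121 and 130.4 RPM in fed libraries (log2 fold change −1.76, SE 0.195, edgeR FDR 1.79e-05). ugt-47 had 21.1, 22.1, 23.7 and 15.5 RPM in fasted, against 54.9, 75.5, 57.6 and 66.1 RPM in fed libraries (−1.62, SE 0.174, edgeR FDR 1.39e-05). ugt-46, on chromosome X, had 13.8, 7.94, 9.99 and 7.39 RPM in fasted, against 42.7, 49.5, 48.0 and 45.8 RPM in fed libraries (−2.25, SE 0.207, edgeR FDR 4.56e-06). In each of these genes the highest fasted library stayed below the lowest fed one.

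The remaining genes that fell were lower in level or closer to the threshold. ugt-21 was at 4.56, 2.53, 4.16 and 1.71 RPM in fasted and 12.2, 14.98, 17.4 and 13.99 RPM in fed libraries (log2 fold change −2.17), and ugt-19 at 0.624, 0.672, 0.933 and 1.03 RPM in fasted and 2.54, 4.01, 6.64 and 3.79 RPM in fed libraries (−2.37). ugt-53 had 5.22, 5.14, 4.23 and 3.87 RPM in fasted, against 8.61, 15.8, 9.29 and 12.6 RPM in fed libraries (−1.33). ugt-16 had 13.04, 20.0, 12.0 and 8.33 RPM in fasted, against 22.4, 26.999, 41.9 and 41.0 RPM in fed libraries (−1.31, SE 0.289, edgeR FDR 0.00186), and was not called with only fasted libraries 2 and 3 (−1.05). The smallest changes were the least certain. ugt-64 had 5.62, 4.74, 3.16 and 3.34 RPM in fasted and 7.51, 8.20, 5.75 and 9.97 RPM in fed libraries (−0.90, SE 0.248, edgeR FDR 0.00691). ugt-50 had 41.3, 46.7, 39.5 and 38.8 RPM in fasted and 56.9, 53.4, 86.6 and 59.6 RPM in fed libraries (−0.63, SE 0.171, edgeR FDR 0.00650). The call of ugt-64 was lost without fasted library 3 (−0.78) or 4 (−0.80) and without fed library 1 (−0.92), 2 (−0.88) or 4 (−0.76). That of ugt-50 was lost without fasted library 1 (−0.62), 3 (−0.60) or 4 (−0.59) and without fed library 3 (−0.45) or 4 (−0.66). Both were lost with only fasted libraries 2 and 3 or only 1 and 4. Under TMM, which moved every tested member downward, both were called lower, and this does not make their calls more certain.

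**Figure D3:**
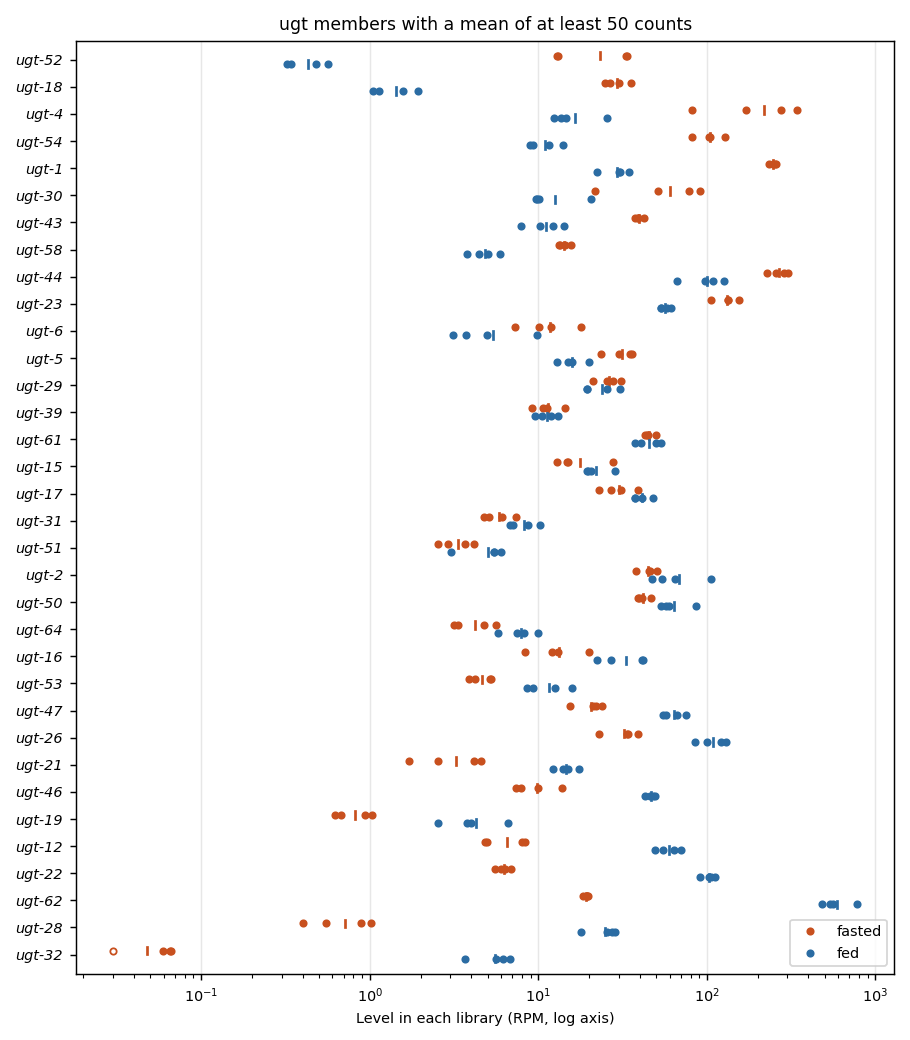
Level of the 34 ugt genes averaging 50 counts or more in each fasted (orange) and fed (blue) library in RPM on a log axis, where short vertical lines are group means and the open circle is a library with 0 counts drawn at the left. ugt-62 is at 18.4 to 19.8 RPM in fasted and 482 to 779 RPM in fed libraries, while ugt-1 is at 232 to 258 RPM in fasted and 22.4 to 34.6 RPM in fed libraries.

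Of the members that rose, ugt-1 (WBGene00007072; chromosome V, 10395663 to 10397820) was high and even across the fasted libraries. It had 232, 258, 255 and 248 RPM in the fasted libraries and 30.4, 22.4, 34.6 and 30.1 RPM in the fed ones, with a log2 fold change of 3.08 (SE 0.152, edgeR FDR 7.75e-08) and of 2.01 under TMM. ugt-54 (WBGene00012013; chromosome IV, 10761698 to 10764415) had 103, 129, 105 and 81.9 RPM in fasted and 13.9, 8.97, 11.6 and 9.25 RPM in fed libraries (3.26, SE 0.202, edgeR FDR 3.43e-07). ugt-18 (WBGene00013900; chromosome V, 12820260 to 12822778) had 24.8, 35.6, 26.5 and 29.9 RPM in fasted and 1.14, 1.05, 1.57 and 1.93 RPM in fed libraries (4.35, SE 0.244, edgeR FDR 1.82e-07). All of these lay well above the median of all genes and were higher under both scalings.

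The rises of ugt-52, ugt-4 and ugt-30 were uneven across the fasted libraries. ugt-52 (WBGene00018931; chromosome IV, 778784 to 784182) reached 33.7, 33.0, 13.02 and 12.9 RPM in the fasted libraries, against 0.341, 0.477, 0.322 and 0.569 RPM in the fed ones (log2 fold change 5.75, SE 0.441, edgeR FDR 1.36e-06). Its fasted libraries fell into a higher pair (1 and 2) and a lower pair (3 and 4). Germline markers (142, 437, 56.6 and 62.8 RPM) and hypodermis markers (355, 101.4, 19.3 and 19.7 RPM) were likewise higher in fasted libraries 1 and 2 than in 3 and 4, as were ugt-4 and ugt-30, and the part of these tissues was not tested. ugt-4 (WBGene00013905; chromosome V, 12793014 to 12795336) had 276, 341, 171 and 81.7 RPM in fasted and 25.7, 12.4, 14.6 and 13.7 RPM in fed libraries (3.71, SE 0.429, edgeR FDR 2.34e-05). Even the lowest fasted library was above the highest fed one. ugt-52 and ugt-4 were called under TMM as well, at 4.66 and 2.64. ugt-30 spread in the same manner, with 77.8, 91.1, 51.3 and 21.7 RPM in fasted and 9.71, 20.5, 9.78 and 10.1 RPM in fed libraries (2.27, SE 0.420, edgeR FDR 6.04e-04), and was not called under TMM (1.17).

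Other members rose by smaller factors. ugt-44 (WBGene00008486; chromosome IV, 10469741 to 10471899), which has only 4 exons, was among the leading ugt genes of fasted intestines, at 286, 303, 257 and 228 RPM in fasted and 66.5, 97.0, 127 and 109 RPM in fed libraries (log2 fold change 1.43, SE 0.190, edgeR FDR 6.32e-05). ugt-23, on chromosome X, had 106, 155, 133 and 134 RPM in fasted and 58.0, 61.1, 53.5 and 53.3 RPM in fed libraries (1.23, SE 0.139, edgeR FDR 2.03e-05). ugt-58 had 14.4, 13.3, 15.6 and 13.4 RPM in fasted and 3.79, 4.44, 5.95 and 5.01 RPM in fed libraries (1.56, SE 0.183, edgeR FDR 2.62e-05). Under TMM these were at 0.36, 0.15 and 0.50 and were not called. ugt-43 had 37.5, 39.0, 42.2 and 39.3 RPM in fasted and 14.3, 12.2, 7.92 and 10.3 RPM in fed libraries (1.82, SE 0.188, edgeR FDR 1.04e-05) and was called under TMM at 0.74. That call was lost when TMM was joined with the replicate block (0.77), with only fasted libraries 2 and 3 (0.79) or with only 1 and 4 (0.61). ugt-5 had 34.9, 36.1, 30.2 and 23.5 RPM in fasted and 20.0, 12.9, 15.8 and 15.02 RPM in fed libraries, and its rise of 0.97 (SE 0.190, edgeR FDR 9.07e-04) turned to −0.10 under TMM. Of the 12 members called higher, 10 lay above the all-gene median of 1.23, the exceptions being ugt-5 and, by a margin far below its SE, ugt-23.

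Of the 34 members with a mean of 50 counts or more, 9 were not called by total counts. ugt-61 had 44.3, 49.98, 42.9 and 44.8 RPM in fasted and 40.9, 37.2, 53.8 and 49.7 RPM in fed libraries, and ugt-29 had 27.6, 31.1, 21.1 and 25.6 RPM in fasted and 19.3, 19.4, 25.6 and 30.5 RPM in fed libraries. ugt-2 had 50.2, 45.4, 46.0 and 38.2 RPM in fasted and 47.3, 54.3, 106 and 65.1 RPM in fed libraries. ugt-17 was at 27.1, 39.0, 30.8 and 23.02 RPM in fasted and 41.3, 37.6, 47.7 and 37.7 RPM in fed libraries. ugt-15 was at 14.8, 27.9, 15.1 and 12.9 RPM in fasted and 19.4, 19.7, 28.5 and 20.4 RPM in fed libraries. The groups overlapped in each of these genes, and the same was true of ugt-6, ugt-31, ugt-39 and ugt-51. ugt-6 (log2 fold change 1.12, SE 0.383, edgeR FDR 0.0203) had the largest positive value among them and was called without fed library 4 (1.58). ugt-17 was called lower without fasted library 2 (−0.61) and with only fasted libraries 1 and 4 (−0.71). Under TMM ugt-61, ugt-29, ugt-2, ugt-17, ugt-15, ugt-31, ugt-39 and ugt-51 were called lower, so that whether they changed rests on the scaling.

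Ranked per length, the order of the family differed between the states. In fasted intestines ugt-44 (150.2 ± 18.5 RPKM), ugt-1 (145 ± 6.67) and ugt-4 (128 ± 67.3) led and could not be told apart by their ranges. They were followed by ugt-23 (79.5 ± 12.0) and ugt-54 (59.97 ± 10.996, SD, n = 4 each), and each of the first 20 members overlapped the next in its range. In fed intestines ugt-62 stood alone at 345 ± 76.6 RPKM, with its lowest library (282) above the highest library of ugt-26 (70.1). Behind it ugt-26 (58.6 ± 10.9), ugt-44 (55.7 ± 14.2), ugt-22 (50.4 ± 4.24), ugt-2 (40.5 ± 15.6), ugt-47 (38.4 ± 5.61), ugt-12 (35.6 ± 5.45), ugt-50 (34.7 ± 8.21) and ugt-23 (33.95 ± 2.27, SD, n = 4 each) each overlapped the next. The ranges of ugt-23 and of the next gene, ugt-46 (26.1 ± 1.66), did not overlap. Genes on either side of them did, as ugt-61 at rank 11 reached 30.5 RPKM, above the lowest library of ugt-50 (28.9). On the same scale ugt-62 ranked 18 in fasted intestines (11.2 ± 0.341 RPKM) and ugt-1 ranked 14 in fed ones (17.2 ± 2.97 RPKM).

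The genes are grouped along the chromosomes, mostly on chromosome V. It carries 42 of the 67, with 12 on IV, 5 on I, 4 on X, 3 on III and 1 on II (WBcel235). With at most 1 other protein-coding gene allowed between neighbours, 37 members fell into 12 arrays of 2 to 8 genes and 30 stood alone. Exon lengths were 1444 to 2713 base pairs (median 1689), and transcripts had 4 to 11 exons.

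Neighbours in an array did not always change alike. In the array ugt-18, ugt-16 and ugt-15, ugt-18 rose, ugt-16 fell and ugt-15 was not called. The counts of ugt-18 per count of ugt-16 were 1.90, 1.79, 2.21 and 3.59 in the fasted libraries and 0.0508, 0.0389, 0.0374 and 0.0472 in the fed ones, a ratio that no scaling alters. ugt-1 and ugt-2 lie side by side, and ugt-1 had 4.62, 5.68, 5.53 and 6.50 counts per count of ugt-2 in fasted libraries, against 0.642, 0.413, 0.326 and 0.463 in fed ones. By total counts only ugt-1 of this pair was called. In the array ugt-5, ugt-4, ugt-6 and ugt-3, ugt-4 had 7.91, 9.44, 5.67 and 3.48 counts per count of ugt-5 in fasted and 1.29, 0.967, 0.921 and 0.909 in fed libraries.

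Further arrays held no genes called in opposite directions by total counts. In the array of ugt-26, ugt-27, ugt-28 and ugt-25 on chromosome I, the 3 tested genes fell, including ugt-25 at 0.230, 0, 0.0666 and 0.118 RPM in fasted and 0.759, 2.10, 0.805 and 1.06 RPM in fed libraries (log2 fold change −3.40, SE 0.693, edgeR FDR 0.00114). Its fasted counts were only 7, 0, 2 and 4, close to the floor of 3, so that the size of its fall is uncertain. Both ugt-43 and ugt-44 rose by total counts, with 7.63, 7.78, 6.10 and 5.81 counts of ugt-44 per count of ugt-43 in fasted and 4.66, 7.98, 16 and 10.6 in fed libraries, which overlap. The longest array, of 8 genes from ugt-12 to ugt-13 on chromosome V, had a single well-expressed gene at its end, ugt-12. Of the other members of that array only ugt-9 was tested, and it had 16, 2, 13 and 87 counts in fasted and 0, 4, 8 and 70 counts in fed libraries, so that library 4 of each group stood out. Of the 12 arrays, 8 had at least 2 tested genes, and genes were called in both directions in 1 of these by total counts and in 2 under TMM, where ugt-2 was called lower (−1.66) beside ugt-1. In the array of ugt-39, ugt-41 and ugt-36, ugt-39 (11.4 ± 2.21 RPM in fasted and 11.3 ± 1.56 RPM in fed libraries, SD, n = 4 each) and ugt-41 were not called by total counts, and ugt-39 was lower under TMM.

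**Figure D4:**
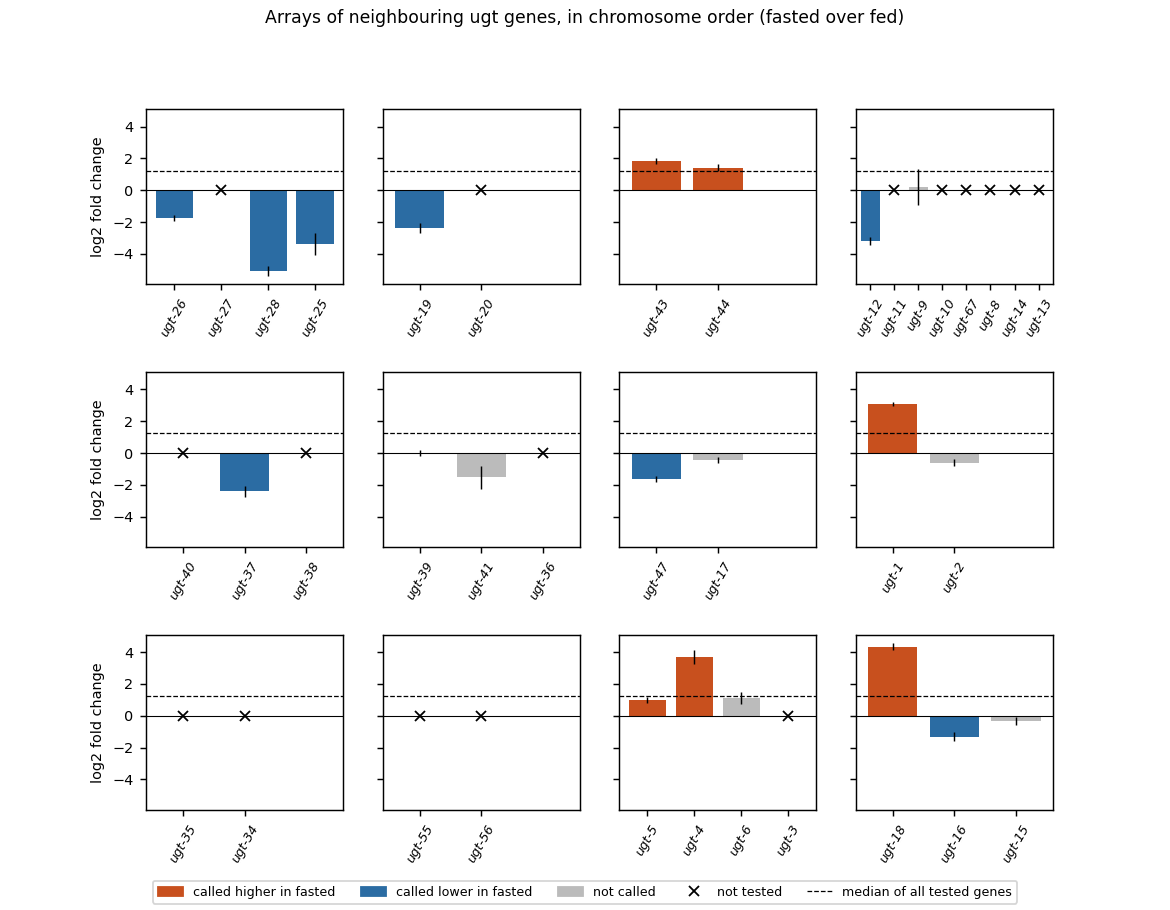
Log2 fold change by total counts (fasted over fed, bars ± SE) of the ugt genes in each of the 12 arrays, in the order of the chromosome, coloured by call, with crosses for genes not tested and a dashed line for the median of all tested genes. In the last panel ugt-18 stands at 4.35 beside ugt-16 at −1.31, and in the array of ugt-12 only 2 of 8 genes were tested.

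The 10 tested members with a mean below 50 counts were called in both directions. Here ugt-24 was higher, at 1.64, 1.98, 3.30 and 3.78 RPM in fasted and 0.835, 0.668, 0.563 and 0.834 RPM in fed libraries (log2 fold change 1.88, SE 0.352, edgeR FDR 6.64e-04), and was not called under TMM (0.81). A further 5 of the 10 were lower, by −1.76 to −3.40 on the log2 scale: ugt-7, ugt-25, ugt-33, ugt-37 and ugt-65. ugt-37 was at 0.427, 0.435, 0.466 and 0.325 RPM in fasted and 1.97, 1.96, 1.77 and 3.15 RPM in fed libraries. ugt-7 was at 0.328, 0.395, 0.599 and 0.768 RPM in fasted and 1.82, 2.10, 2.41 and 1.86 RPM in fed libraries. By total counts ugt-9, ugt-41, ugt-48 (1.97, 1.38, 2.20 and 2.75 RPM in fasted, 1.33, 1.62, 1.81 and 1.02 RPM in fed libraries) and ugt-49 (1.18, 0.869, 1.33 and 1.74 RPM in fasted, 2.43, 1.76, 1.73 and 1.29 RPM in fed libraries) were not called. Under TMM ugt-49 was called lower.

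The 23 members that were not tested had at most 76 counts in any library, and ugt-14, ugt-35 and ugt-36 had 0 in all 8. Their counts came mostly from the fasted libraries that also had the highest muscle, pharynx and neuron marker sums. Summed over the 23, there were 115, 17, 47 and 308 counts in fasted libraries 1 to 4, against 25, 20, 15 and 21 in the fed ones. In 14 of the 20 members with a count, fasted library 4 had the highest value. The same libraries led over the whole table. Genes with a count numbered 13321, 12020, 10955 and 13615 in fasted libraries 1 to 4, against 8807 to 9124 in fed ones. Fasted library 4 was also the deepest, so that this pattern is not particular to the family. The neighbouring genes ugt-55 (35, 0, 0 and 34 counts in the fasted libraries) and ugt-56 (14, 0, 0 and 22 counts) had 0 in every fed library. In fasted libraries 1 to 4, body wall muscle markers stood at 1011, 64.6, 23.01 and 1458 RPM. Pharynx markers stood there at 197, 2.45, 0.833 and 378 RPM, and neuron markers at 66.2, 17.2, 14.95 and 79.0 RPM. These tissues cannot be told apart by this pattern. ugt-66 (4, 0, 4 and 76 counts in fasted, 0, 2, 0 and 0 counts in fed libraries) and ugt-11 (0, 4, 0 and 50 counts in fasted, 0 in fed libraries) were mainly in fasted library 4. ugt-60 had 8, 0, 9 and 28 counts in fasted and 5, 0, 0 and 2 counts in fed libraries. The part of other tissues in these counts was not tested, and levels at or below 3 counts, the floor used here, could not be told apart.

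**Figure D5:**
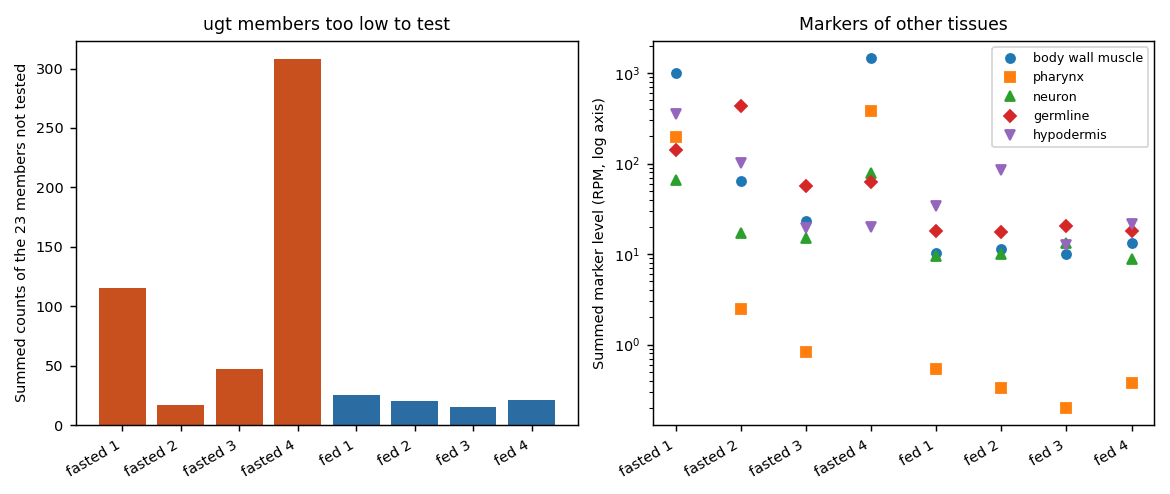
Left, summed counts of the 23 ugt genes not tested in each library (fasted orange, fed blue). Right, summed RPM of markers of 5 other tissues in the same libraries on a log axis. Fasted libraries 1 and 4, with 115 and 308 counts on the left, have the highest muscle (1011 and 1458 RPM), pharynx (197 and 378 RPM) and neuron (66.2 and 79.0 RPM) sums on the right.

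Some counts may include reads of other genes. The chemistry is not stated to keep strand, and exons of genes on the opposite strand cover 17.0% of the exon bases of ugt-50 (nhr-26), 13.9% of ugt-22 (srz-29), 7.45% of ugt-48 (cft-1), 5.91% of ugt-47 (srd-49) and 4.06% of ugt-64 (C07G3.10) in WBcel235. ugt-37 and ugt-40 share 42 bases on the same strand. Close copies lose reads that match more than 1 place, and how much each member lost was not tested.

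A list of genes for UDP-sugars, the donors of the UGT reaction, mostly did not pass the test. Its genes make, convert or carry UDP-sugars, except sqv-8, a glucuronosyltransferase gene whose product uses one. Of 9 tested genes among 11 found, 3 rose, 1 fell and 5 were not called by total counts. The median log2 fold change was 0.10, which is the value of sqv-8 itself. Under TMM 0 were higher and 4 lower. These are 33.3% higher and 11.1% lower by total counts (all genes 52.9% and 9.97%) and 0% and 44.4% under TMM (all genes 19.6% and 21.5%). sqv-4, the UDP-glucose dehydrogenase that makes UDP-glucuronic acid, averaged 2.81 ± 2.17 RPM in fasted and 0.599 ± 0.310 RPM in fed intestines (SD, n = 4 each, log2 fold change 2.21, SE 0.620, edgeR FDR 0.00756). Its groups overlapped, with fasted library 3 at 0.666 RPM and fed library 1 at 1.06 RPM. sqv-7, a transporter of UDP-glucuronic acid into the secretory pathway, averaged 2.77 ± 1.27 RPM in fasted and 0.683 ± 0.345 RPM in fed intestines (2.01, SE 0.447, edgeR FDR 0.00203). The nucleotide sugar transporter gene nstp-4 averaged 9.51 ± 1.80 RPM in fasted and 2.91 ± 1.27 RPM in fed intestines (1.70, SE 0.289, edgeR FDR 3.42e-04). None of these 3 was called under TMM. gale-1, the UDP-galactose epimerase, fell to 1.88 ± 0.504 RPM in fasted intestines, against 7.34 ± 2.78 RPM in fed ones (−1.97, SE 0.320, edgeR FDR 2.60e-04), also under TMM.

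Regulators with known roles in detoxification or in the intestine were called in both directions, with 6 of 11 tested genes higher and 2 lower by total counts and 3 and 4 under TMM. The higher share, 54.5% by total counts, was near the 52.9% of all genes. The lower share was 18.2% against 9.97%, and under TMM the shares were 27.3% and 36.4% against 19.6% and 21.5%. skn-1, the Nrf homologue that drives conjugation genes after toxic stress, averaged 64.2 ± 17.0 RPM in fasted and 22.1 ± 3.13 RPM in fed intestines (log2 fold change 1.53, SE 0.211, edgeR FDR 8.15e-05) and was not called under TMM. The nuclear receptor nhr-8, which acts in resistance to foreign compounds, averaged 131 ± 12.6 RPM in fasted and 35.2 ± 4.69 RPM in fed intestines (1.90, SE 0.141, edgeR FDR 1.14e-06), and the Mediator subunit mdt-15 averaged 70.3 ± 1.59 RPM in fasted and 17.8 ± 3.07 RPM in fed intestines (1.98, SE 0.151, edgeR FDR 1.29e-06). Both were also higher under TMM, as was hlh-30 (2.41). daf-16 (1.67) and elt-2 (1.57) rose by total counts only. nhr-49 averaged 32.6 ± 5.04 RPM in fasted and 99.3 ± 16.4 RPM in fed intestines (−1.60, SE 0.167, edgeR FDR 1.13e-05), and nhr-86 fell by 0.80 (SE 0.213, edgeR FDR 0.00549). nhr-49 and nhr-86 were lower under TMM too.

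Other families of the same detoxification route were called in both directions as well. Of 45 tested cytochrome P450 (cyp) genes, which oxidise foreign compounds before conjugation, 17 were higher and 19 lower, with a median log2 fold change of 0.07. Of 21 tested glutathione S-transferase genes, which conjugate glutathione, 7 were higher and 7 lower (median −0.21). Of 15 tested pgp and mrp transporter genes, which export conjugates and drugs, 5 were higher and 5 lower (median 0.35). All genes had a median of 1.23. The higher and lower shares were 37.8% and 42.2% for cyp genes, 33.3% and 33.3% for glutathione S-transferase genes and 33.3% and 33.3% for the transporters, beside 52.9% and 9.97% of all genes. Under TMM the counts were 6 and 21 (13.3% and 46.7%), 1 and 12 (4.76% and 57.1%), and 2 and 8 (13.3% and 53.3%), beside 19.6% and 21.5% of all genes. The difference between the ugt family and these was not tested.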

How the data were processed

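Counts per gene were deposited by the authors. Per the study's methods, the authors trimmed adaptors with Trimmomatic v0.39, aligned reads to ce10 through QuasR v1.42.1, used unique reads and counted those within WormBase WS220 exons in the orientation of the gene. The labels call the 4 replicates of a group independent and biological. The number of unmatched value columns was 0, and the deposited width column is the exon length in base pairs. Of values from 1 to 20 counts, 68.3% were even, so that a read pair may have entered as 2 counts, and small counts hold fewer molecules than they show.

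Rows were named by identifier (19182 of 20392 matched), and members were taken by symbol. Positions come from Ensembl release 115 on WBcel235, a later build than ce10, and none was converted. Genes passing filterByExpr (minimum count 10, minimum total count 15) were tested in edgeR 4.0.16 (glmQLFit and glmQLFTest, R 4.3.3), with no term beside the group and library sizes equal to total counts, as in the study's scaling. FDR is the Benjamini-Hochberg adjusted P value over all genes tested. Calls required an FDR below 0.01 together with a fold change above 1.5. The SE of a log2 fold change was its size divided by the square root of the F statistic. Alternatives were TMM scaling, DESeq2 1.42.0, other filters, a replicate block, no minimum fold change and left-out libraries. RPM is counts per 1000000 counts of the library, and RPKM divides it by the exon length in kilobases. Depth was 20964161 to 33846215 counts, where 3 counts (the floor used here) equal 0.0886 to 0.143 RPM. Floors cover counting error only.

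Members with a mean of at least 50 counts were named, and those called or at 20 RPM or more were given by library. Of members below 50 counts, all that were tested and some of those not tested were named. The members and lists were chosen with earlier results of these data known. No sequences are shown.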

Additional observations from a re-analysis of the deposited data

Results flagged for a closer look

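Among 70 groups of 4 libraries (the 34 genes averaging 50 counts or more and the family sum, in fasted and in fed libraries), 5 held a library far from the other 3, judged by its gap to the nearest library as a share of the group's range. Chance alone gives about 1 in 20 such groups. ugt-30 stood apart in fed library 2 (20.5 RPM, the others 9.71 to 10.1 RPM). ugt-15 did so in fasted library 2 (27.9 RPM, the others 12.9 to 15.1 RPM) and in fed library 3 (28.5 RPM, the others 19.4 to 20.4 RPM). ugt-4 was high in fed library 1 (25.7 RPM, the others 12.4 to 14.6 RPM). ugt-32 had 0 RPM in fasted library 2, where the other fasted libraries had 2 counts each.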

How the results depend on the processing

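Scaling was the choice that mattered most. TMM factors gave 1448 genes higher and 1585 lower, 6 ugt genes higher, a ugt median of −1.61 and a summed log2 ratio of −1.16. DESeq2 gave 1748 and 1754 genes, 7 ugt genes higher and 29 lower, and a median of −1.62. Without a filter on low counts, 64 members entered and the median was 0.22, beside 1.89 for all genes. The 44 members of the main fit had a median of −0.54 in that setting. Leaving out 1 library gave ugt medians of −0.62 to −0.45 and summed log2 ratios of −0.19 to 0.0040.

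Correlations of same-numbered deviations were 0.0437 to 0.163, and fasted libraries 3 and 4 but not 1 and 2 correlated best with their own number. So few libraries cannot decide whether same-numbered libraries were paired. With a replicate block the ugt median was −0.52, 13 ugt genes were higher and 17 lower, ugt-6 gained its call (1.20) and ugt-50 lost it (−0.60). The block with TMM factors gave 1316 and 1502 genes, 5 ugt genes higher and a median of −1.59.

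Alternatives chosen after seeing the data joined TMM factors with part of the fasted libraries. Fasted libraries 2 and 3 gave 943 and 1338 genes, 5 ugt genes higher and a median of −1.65. Fasted libraries 1 and 4 gave 1436 and 1379 genes, 7 ugt genes higher and a median of −1.66 over 48 tested members. The 44 members of the main fit had a median of −1.83 there.

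Some genes changed sign, among them ugt-5 and ugt-23, which were called higher by total counts. Under TMM, DESeq2, the block with TMM, libraries 2 and 3 with TMM, and libraries 1 and 4 with TMM, ugt-29 was at −0.92, −0.93, −0.91, −0.94 and −0.99, ugt-61 at −1.07, −1.08, −1.06, −1.03 and −1.18, ugt-39 at −1.06, −1.07, −1.07, −0.90 and −1.31, and ugt-5 at −0.10, −0.11, −0.11, −0.014 and −0.29. With only fasted libraries 1 and 4 by total counts, ugt-61 was at −0.027 and ugt-39 at −0.15. Leaving out 1 library at a time, ugt-61 ranged from −0.081 to 0.094 and ugt-39 from −0.12 to 0.10. ugt-6 was at −0.22 with libraries 2 and 3 and TMM, and ugt-23 at −0.080 with libraries 1 and 4 and TMM. By total counts ugt-29, ugt-61, ugt-39 and ugt-5 were at 0.15, 0.0028, 0.013 and 0.97, all below the shift of 1.07 between the scalings. Causes other than the scaling were not tested. ugt-64 also lost its call without a filter (−0.90). Members at or below 3 counts could not be compared at this depth.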

Other observations

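Within the fasted group, some of the genes that rose varied between libraries far more than others. ugt-4 and ugt-30 were both highest in fasted library 2 (341 and 91.1 RPM) and lowest in fasted library 4 (81.7 and 21.7 RPM), while ugt-1 and ugt-43 ranged only from 232 to 258 and from 37.5 to 42.2 RPM in the same libraries. Over 4 libraries this is a description. Summed germline markers were also highest in fasted library 2, at 142, 437, 56.6 and 62.8 RPM in fasted libraries 1 to 4, and muscle markers were highest in fasted libraries 1 and 4. The part of either in these levels was not tested.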
